A study of Mus musculus with 15 samples.

Results

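To describe how transcripts of splicing-related genes differ between the mature oocyte and the early embryo of young mice, the RNA-seq libraries of MII oocytes (3 samples) were set against those of 2-cell embryos (2 samples), all from 8–10 w females. These are 5 of the 15 libraries of the series; the others came from females aged 6–8 m or 10–12 m, with 3 MII and 2 2-cell samples at each age, and serve to compare the stage difference between ages. The comparison covered the 333 genes counted in the MII libraries, all of which had a RefSeq transcript among the 24222 genes counted in the 2-cell libraries, and 309 of the 333 had enough reads to be tested. The young females were virgin C57BL/6 mice and the older ones ex-breeders of that strain, all superovulated with 5 IU PMSG and then 5 IU hCG. MII oocytes were collected 14 to 15 h after hCG. The 2-cell embryos came from in vitro fertilization with sperm of C57BL/6 males and were cultured to about 28 h after insemination. Each sample was a pool of about 50 oocytes or embryos, and nothing in the labels says that the replicates came from separate animals, so that p-values measure only the spread between these samples.

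The mature oocyte is transcriptionally silent and lives on mRNAs stored during its growth. After fertilization, many of these maternal mRNAs are degraded and the embryonic genome is switched on, which in the mouse becomes prominent at the 2-cell stage. Introns are removed by the spliceosome, which is built on every pre-mRNA from small nuclear ribonucleoproteins (snRNPs) and helper complexes, and exon choice is steered by RNA-binding proteins such as SR proteins and hnRNPs.

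The stages were counted by different programs, and the study describes the making of their libraries separately. Stage, counting program and any difference in experiment therefore cannot be told apart in any difference below. Levels are therefore given as shares, namely the reads (MII) or fragments (2-cell) of a gene per 10000 counted on the 333 shared genes of the same library. A share says nothing about the amount of RNA in an oocyte or embryo. The labels also conflict, since the source of the 2-cell samples is written as oocyte and the extraction text of the MII samples speaks of 2-cell embryos. The stage was taken from the sample titles and the methods of the study. In both young 2-cell libraries all 12 listed genes of 2-cell genome activation that their tables hold had fragments, with a summed level of 984 and 1606 FPM (fragments scaled to the total of the library). Among them, Zfp352 stood at 257 and 352 and Zscan4f at 94.9 and 224 FPM. All 13 oocyte genes in the tables were also detected, with sums of 8557 and 10139 and Dppa3, a maternal factor kept in the early embryo, as the most abundant. Of the 10 cumulus cell markers, 7 and 8 were at 0, with Amhr2 highest at 7.83 and 6.56 FPM, and the 7 sperm markers summed to 0.332 and 0.516. The MII tables list only the 333 genes and hold none of the defining oocyte genes, so the MII label could not be checked in this way.

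The 3 MII libraries had 304425, 263866 and 347467 reads on the shared genes, and the 2-cell libraries had 357343 and 304637 fragments. This was between 1.80% and 1.83% of the MII reads that were aligned and not set aside for low quality, including reads on no listed gene. For 2-cell embryos it was 2.37% and 2.25% of the fragment total used for FPM. These totals come from different programs and may not cover the same reads, which also holds for the whole-library scaling below. On the reads and fragments of the shared genes, a gene with a share of 1 rested on 26.4 to 35.7 of them. The 10 most abundant genes took 35.4%, 35.1% and 36.1% of the shared reads in MII oocytes and 24.5% and 25.6% in 2-cell embryos. Replicates of a stage ranked the 333 genes almost alike, with Spearman's rho across genes of 0.992 to 0.996 in MII oocytes and 0.992 in 2-cell embryos. Between the stages rho was 0.621 to 0.643 over the 6 pairs of libraries. These coefficients are across genes, which are not independent replicates, and they describe these libraries. Of the 20 genes with the highest share in MII oocytes, 6 were among the 20 highest in 2-cell embryos.

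A gene was called where its share differed by more than 1 on the log2 scale at an edgeR adjusted p-value below 0.05. Of the 309 genes tested, 123 (39.8%) were higher in 2-cell embryos and 76 (24.6%) were lower, or 64.4% in all. The shares of the stages did not overlap in 88.7% of tested genes, and in none of the 199 called genes did they overlap. Since most genes were called, a gene list is read below against these percentages. The fold change depended on the scale. The median of all tested genes was 0.37 on the log2 scale. With TMM factors, which centre most genes, the typical shift of a value was -0.33, and 111 genes were called higher and 97 lower. Scaling to the whole library gave a typical shift of 0.35 and called 136 higher and 57 lower. Genes higher in 2-cell embryos thus made up 61.8% of calls on shares, 53.4% with TMM factors and 70.5% on the whole library. Below, values are shares, to be read against the median of 0.37. The differences were wide. Beyond 3 on the log2 scale, 57 called genes were higher and 13 lower in 2-cell embryos, and beyond 5 they were 21 and 3. The scatter plot of stage means shows this asymmetry at low MII shares.

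**Figure D1:**
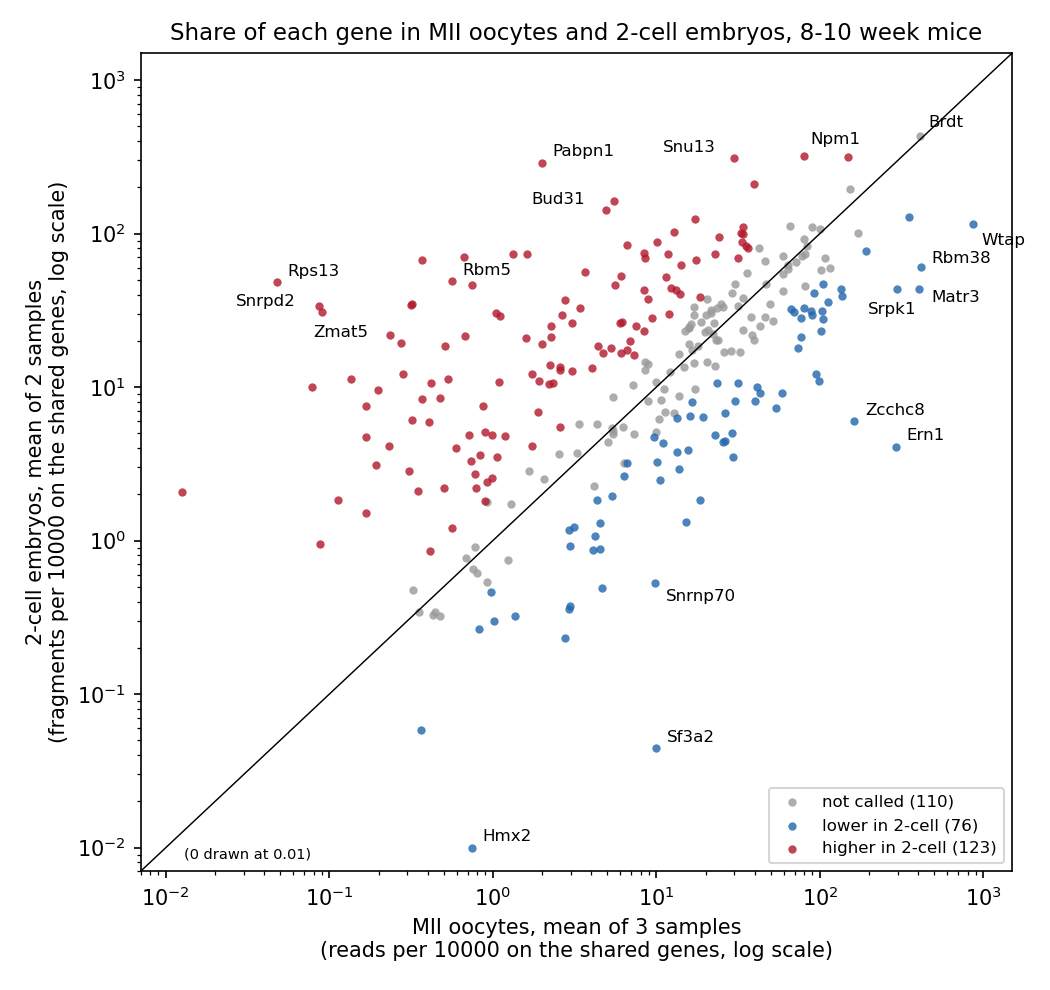
Mean share of each of the 309 tested genes in MII oocytes (x axis, 3 samples) and 2-cell embryos (y axis, 2 samples), in reads or fragments per 10000 on the shared genes, both on log scales, with a share of 0 drawn at 0.01. Red points are the 123 genes called higher and blue points the 76 called lower in 2-cell embryos, and the line marks equal shares; Brdt lies on the line at the upper right, while Rps13, Snrpd2 and Pabpn1 lie far above it and Ern1 and Sf3a2 far below.

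Among the 10 largest rises, Pabpn1 was by far the most abundant. It encodes the nuclear poly(A)-binding protein, which binds the tail as it is made, and lies at chr14:54892500-54898169 (mm10, GENCODE vM21). Its share was 1.74, 2.05 and 2.22 in MII oocytes and 293 and 286 in 2-cell embryos, a rise of 7.17 ± 0.12 (log2, SE; edgeR adjusted p = 2.4e-13). All 3 MII libraries were low and both 2-cell libraries high, and the mean rank of Pabpn1 among the 333 genes moved from 228 to 4.5. Pabpc1, its cytoplasmic counterpart, rose by 7.44 ± 0.21, from 0.46, 0.189 and 0.46 to 62 and 71.9. Cdc5l, a core subunit of the Prp19 complex, stood at 0.493, 0.417 and 0.0576 in MII oocytes and at 34.1 and 35.1 in 2-cell embryos. Ncbp1, the large subunit of the nuclear cap-binding complex, went from 0.131, 0.303 and 0.518 to 33.3 and 34.8. For these genes the MII libraries held few reads, 28 in all for Cdc5l and 30 for Ncbp1, while the 2-cell libraries held 2290 and 2250 fragments. Rbmx, an X-linked hnRNP-like protein, rose by 6.96 ± 0.37 from 7 pooled MII reads. Without MII replicate 1 the value of Rbmx was 7.56, and without MII replicate 3 that of Ncbp1 was 7.30 in place of 6.69.

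The other largest rises also started from few MII reads. Rps13, a protein of the small ribosomal subunit, had shares of 0, 0 and 0.144 in MII oocytes, from 5 reads in a single library, against 57.3 and 39.7 in 2-cell embryos. The ratio of pooled counts, scaled to the shared reads, was 901 with an exact 95% interval of 386 to 2777, which covers counting error only. Rps26, of the same subunit, had shares of 0.69, 0.758 and 0.547 and then 83.8 and 57.1. Both are made in every cell, and both have near-identical copies elsewhere in the transcriptome (4 for Rps13 and 1 for Rps26), so that the values near 0 of Rps13 are given as listed. Snrpd2, an Sm core protein, moved from 0.0985, 0.0758 and 0.0863 to 37.8 and 29.6, and also has a near-identical copy. Zmat5, a protein of the U11/U12 snRNP, has none and moved from 0.0328, 0.152 and 0.0863 to 34.9 and 26.9. Hspa1a, an inducible HSP70 that is among the first genes switched on in the mouse embryo, had 1 read in the 3 MII libraries together and 139 fragments in the 2-cell libraries, with a pooled ratio of 192 and an exact 95% interval of 33.9 to 7649. Its neighbour Hspa1b is near-identical to it and was too low to be tested.

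Among the 10 largest falls, Ern1, Zcchc8 and Matr3 were abundant in MII oocytes. Ern1 encodes IRE1α, the stress sensor of the endoplasmic reticulum that splices Xbp1 mRNA without the spliceosome, and lies at chr11:106394650-106487852. Its share was 299, 275 and 297 in MII oocytes and 4.34 and 3.84 in 2-cell embryos, so that it fell by 6.14 ± 0.12 (log2, SE; edgeR adjusted p = 7.8e-13). Zcchc8, a scaffold of the nuclear exosome targeting complex at chr5:123698294-123721100, went from 160, 160 and 168 to 5.51 and 6.43 and fell by 4.77 ± 0.12. Matr3, a protein of the nuclear matrix that binds RNA, went from 412, 400 and 393 to 40.1 and 46.9. In these 3 genes every MII library was at least several times above both 2-cell libraries, and the replicates of a stage lay close together. Mettl14, a subunit of the methyltransferase that makes N6-methyladenosine in mRNA, fell from 18.7, 16.8 and 20.2 to 1.99 and 1.67.

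Sf3a2, a subunit of the SF3A complex of the U2 snRNP, had the largest fall. Its 912 pooled MII reads gave shares of 9.66, 10.3 and 9.96, and its 3 pooled fragments in 2-cell embryos gave 0.056 and 0.0328. The pooled ratio of 2-cell over MII was 0.00455, with an exact 95% interval of 0.000937 to 0.0133. Hmx2, a homeobox transcription factor, had 68 pooled MII reads and no fragment in 2-cell embryos, which makes it at least 16.4-fold lower against a floor of 3 fragments over both libraries. Snrnp70, which holds the U1 snRNA, went from 12.3, 10.2 and 6.85 to 0.672 and 0.394 and fell by 4.17 ± 0.36. Khdrbs2, an RNA-binding protein related to SAM68, fell by 3.51 ± 0.44, Mterf4, a mitochondrial factor, by 3.49 ± 0.34 and Gcfc2, a factor linked to spliceosome disassembly, by 3.25 ± 0.31. Without 2-cell replicate 1 the value of Khdrbs2 was -4.76 and that of Mterf4 -4.53, and without 2-cell replicate 2 that of Khdrbs2 was -2.91. None of the 10 largest falls had a near-identical copy, whereas 4 of the 10 largest rises did. The plot of values in each sample shows 15 of the genes described here and below.

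**Figure D2:**
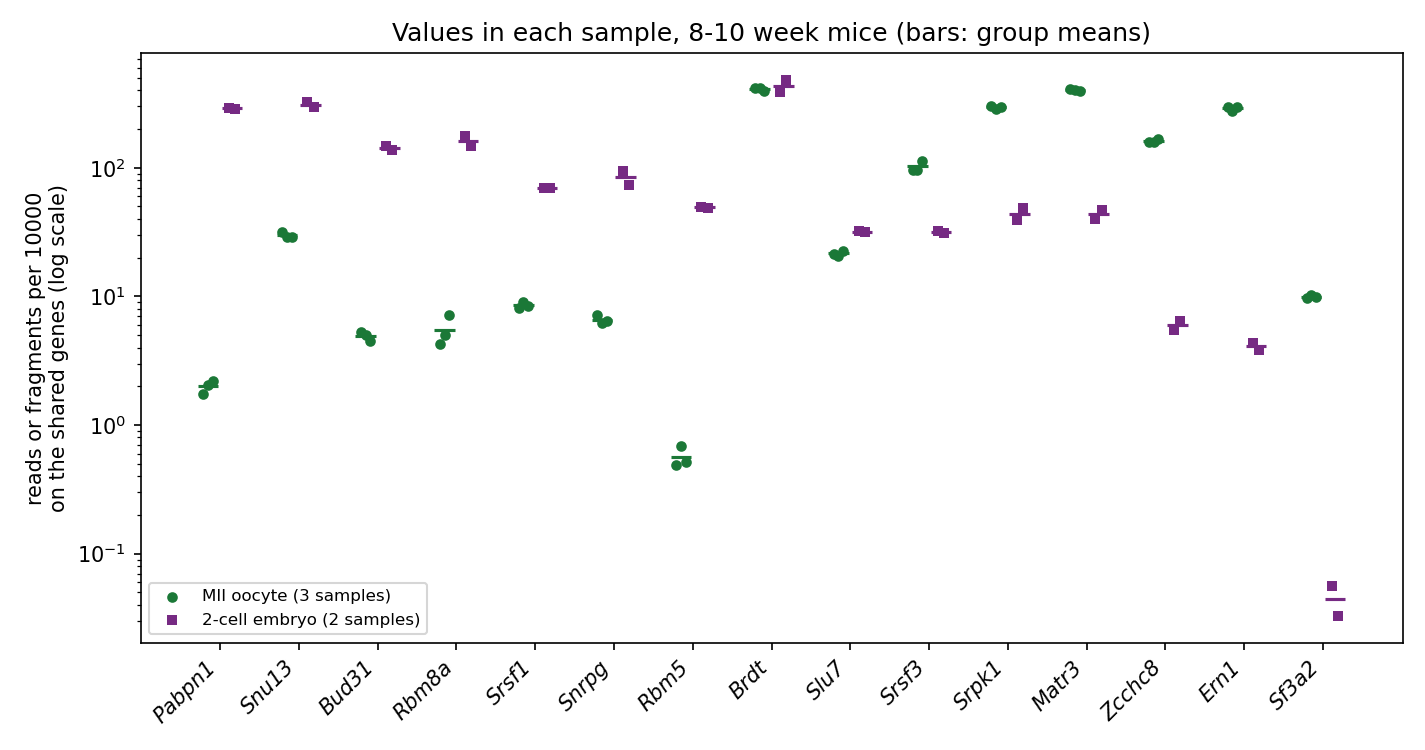
Share of 15 genes in each library, in reads or fragments per 10000 on the shared genes (log scale), with green circles for the 3 MII samples, purple squares for the 2 samples of 2-cell embryos and bars for the group means. The stages overlap for Brdt and for no other gene shown, and replicates lie close together beside the distance between stages.

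Among the genes with the largest shares, Rbm38 was lower and Npm1 and Psip1 were higher in 2-cell embryos, while Brdt was not called. Brdt, a bromodomain protein best known from the male germ line, had the highest share in 2-cell embryos when the longest transcript stood for each gene, and one of the highest in MII oocytes, with 413, 420 and 398 in MII oocytes and 387 and 483 in 2-cell embryos. It did not pass the test on shares (0.08 ± 0.09, edgeR adjusted p = 0.41), and its sign turned with TMM factors (-0.25). Rbm38, an RNA-binding protein that steers splicing and mRNA stability, was at 415, 387 and 451 and then at 64.9 and 55.7, and fell by 2.79 ± 0.10. In 2-cell embryos the next highest were Npm1, a nucleolar chaperone, which rose from 76.7, 79.2 and 83.1 to 339 and 299, and Psip1, a chromatin-bound transcription coactivator, which rose from 144, 154 and 148 to 258 and 370. Psip1 was close to the fold threshold, and its value of 1.08 became 0.74 with TMM factors, below it. Compared per kilobase of mRNA, the highest MII levels were those of Rbm38 (603 per 10000 and kb), Wtap (444) and Snrnp27 (415), and the highest 2-cell levels, on the longest transcript, those of Snu13 (464), Npm1 (423) and Snrpg (402).

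Wtap depended on the transcript used. Wtap, an adaptor of the N6-methyladenosine writer, had the largest MII share at 836, 874 and 876. In 2-cell embryos its longest RefSeq transcript had a share of 120 and 111, which gave a fall of 2.90 ± 0.08. The Wtap transcript with the most fragments, however, had 29709 and 29391 fragments in place of 4293 and 3384. With it the 2-cell shares were 772 and 886, above those of Brdt, and the difference was -0.06 ± 0.08 (edgeR adjusted p = 0.51), so no stage difference was called. Wtap was the only gene of the 333 whose count rose more than 2-fold with this choice, and 6 genes rose by more than 1.2-fold.

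Of the 8 Sm proteins tested, which form the ring around spliceosomal snRNAs, 6 rose, 1 fell and 1 was not called (median 2.68, against 0.37 for all tested genes; 5 rose with TMM factors or DESeq2). Snrpg rose from 7.19, 6.22 and 6.42 to 94.8 and 73.2 and Snrpe from 23.5, 21.9 and 22.6 to 79.1 and 67.5. Snrpn, a form of SmB made from the paternal allele in brain, rose from 1.64, 1.33 and 1.84 to 17.1 and 24.7. Snrpd3 went the other way, from 31.9, 26.8 and 29.1 to 4.59 and 2.43, and Snrpd1 stayed close, with 61.3, 66.5 and 63 against 66.4 and 58.7. The counted shares of the ring genes thus did not differ between stages by 1 common ratio. The 4 Sm genes with a near-identical copy all rose, and of the 4 without one 2 rose, 1 fell and 1 was not called. Only 1 Sm gene, Snrpb, had none of the counting features described below, and it rose. Most of the Sm genes also lie in the shortest of the mRNA length classes described below (up to 1739 nt). Over all 78 tested genes of that class, 44 rose and 15 fell, with a median of 1.58. The part of length, of the copies and of the other features in the result was not tested.

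Of the 9 LSm proteins tested, which bind the U6 snRNA or the ends of mRNAs marked for decay, 6 rose and 2 fell (median 1.53). Most LSm genes also lie in the shortest length class, whose median over all its tested genes was close to this, at 1.58. The part of length was not tested. Lsm7 rose from 0.361, 0.455 and 0.719 to 19.4 and 17.6, and Lsm8, which sets the nuclear ring apart, from 3.19, 2.58 and 2.56 to 43.7 and 30.7. Lsm2, shared by both rings, rose by 1.69 ± 0.12, and Lsm10, part of the U7 snRNP for histone mRNA, by 1.53 ± 0.14. Lsm1, which sets the cytoplasmic ring apart, fell from 71.5, 76.9 and 59.4 to 28.6 and 32.9 (-1.17, and -0.83 on the whole library, below the threshold), and Lsm3 fell from 28.4, 31.2 and 31.7 to 9.77 and 6.43. Among the 3 LSm genes without any of the counting features described below, 1 rose and 1 fell, with a median of -0.21.

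For the U1 snRNP, 8 genes were tested, of which 4 rose and 1, Snrnp70, fell (median 1.27). The 2 without a counting feature were 1 that rose and 1 that fell (median -1.30). Snrpc, the U1 protein that touches the 5′ splice site, rose from 0.46, 0.189 and 0.173 to 21.2 and 17.7, Snrpa from 2.82, 2.65 and 2.45 to 33.4 and 25.1, and Luc7l from 8.77, 9.66 and 9.76 to 28.9 and 27.1. The proteins of the same particle thus lay on both sides, with Snrnp70 lower and Snrpa and Snrpc higher in 2-cell embryos.

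Of the 24 genes of the U2 snRNP and branch site recognition, 9 were higher, 6 lower and 9 not called (median 0.42). This is close to all tested genes, of which 39.8% were higher and 24.6% lower (median 0.37). Besides Sf3a2, the members that fell included Sf3a1, from 41.1, 43.6 and 44.8 to 9.15 and 9.16, and Sf3b1, the large SF3B subunit that clamps the branch site, from 189, 191 and 193 to 76.3 and 77.4 (-1.31, and -0.97 on the whole library, below the threshold). Sf3b6, which contacts the branch site, rose from 8.18, 8.72 and 8.14 to 77.7 and 71. Rbm5, a regulator of 3′ splice site use, rose from 0.493, 0.682 and 0.518 to 49.8 and 48.6, and Rbm17, which works with U2 at the 3′ splice site, from 11.5, 10.4 and 12.5 to 52.9 and 51.7. The count depended on the scale, with 8 higher and 7 lower under TMM factors and 9 higher and 2 lower on the whole library.

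In the U4/U6.U5 tri-snRNP and its activation factors, 8 of 21 tested genes rose and 6 fell (median 0.09). These counts are also near the 39.8% higher and 24.6% lower of all tested genes. With TMM factors or DESeq2, 8 of the 21 rose and 8 fell (median -0.25 and -0.26). Of the 9 without a counting feature, 3 rose and 4 fell (median -0.13). Snu13, which binds U4 snRNA and box C/D snoRNAs and has 3 near-identical copies, rose from 31.9, 28.8 and 28.8 to 324 and 294 (3.37 ± 0.09, edgeR adjusted p = 1.3e-11). Ppih, a cyclophilin of the tri-snRNP with 6 near-identical copies, rose from 1.77, 1.29 and 1.78 to 76.9 and 70.7. Prpf38a, an activation factor with no such copy but with another counting feature, rose from 18.2, 17.8 and 15.7 to 125 and 125. Snrnp27 fell from 128, 135 and 143 to 45.1 and 42.1. Prpf8, the scaffold at the centre of the spliceosome, was among those that fell, from 40.5, 39.2 and 43.5 to 11.2 and 8.76, as was Prpf6, from 26.8, 27.4 and 24.6 to 4.37 and 4.6.

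In the Prp19 complex and related factors, 10 of 19 tested genes rose and 4 fell (median 1.04), against 8 and 5 with TMM factors or DESeq2 and 11 and 2 on the whole library. Of the 9 without a counting feature, 3 rose and 2 fell, with a median of 0.29 against 0.27 for all tested genes without one. Bud31 rose from 5.29, 5 and 4.49 to 146 and 137 (4.85 ± 0.11), Hspa8, a constitutive HSP70 with 4 near-identical copies, from 1.18, 1.74 and 1.04 to 77.3 and 69.8, and Aqr, an intron-binding helicase, from 3.58, 2.8 and 2.82 to 25.5 and 26.7. Prpf19 itself, the ubiquitin ligase of the complex, fell from 2.63, 2.46 and 3.71 to 0.392 and 0.328. Of the 6 tested genes of the second step and of spliceosome release, 1 was called, namely Dbr1, the lariat debranching enzyme, which rose by 1.74 ± 0.34. Cdc40 (-0.81 ± 0.12) and Prpf18 (-0.95 ± 0.14) were below the fold threshold on shares and past it with TMM factors (-1.15 and -1.28).

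The minor spliceosome, which removes the rare U12-type introns, had 5 rises and 1 fall among 8 tested genes, with a median of 3.51. Next to Zmat5, Scnm1 rose from 0.328, 0.114 and 0.259 to 23 and 20.7, Rnpc3 from 5.45, 6.44 and 4.78 to 45.9 and 46.5, and Zrsr1 from 0.197, 0.189 and 0.115 to 5.85 and 9.29. The member that fell was Zrsr2, with a mean share of 19.4 in MII oocytes and 6.35 in 2-cell embryos (-1.61). Zrsr1 and Zrsr2 are paralogs that recognise the 3′ splice site of U12-type introns, and they moved in opposite directions. No gene of this list had a near-identical copy, but Zmat5, Scnm1 and Rnpc3 had other counting features described below. Of the 3 genes without any such feature, 2 rose and 1 fell (median 3.96).

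SR proteins bind exons and promote their inclusion, as do the related Tra2 proteins. The list of both had 7 rises and 2 falls among the 11 tested (median 1.63; 6 rises with TMM factors or DESeq2). The 9 Srsf genes had 5 rises and 2 falls, and Tra2a (2.20) and Tra2b (1.12, and 0.79 with TMM factors) rose. Srsf1 rose from 8.08, 8.98 and 8.43 to 69.8 and 69.3 (3.03 ± 0.11, edgeR adjusted p = 1.4e-10) and Srsf7 from 12.3, 13.3 and 12.9 to 104 and 101 (3.00 ± 0.10). Srsf5 rose from 36.8, 31 and 30.4 to 107 and 95.5. Srsf3, which was the most abundant SR gene in MII oocytes, fell from 96.8, 96.6 and 114 to 32 and 30.8. The 4 genes of the list without a counting feature all rose. The summed share of the list was 318 ± 12.0 (SD, n = 3) in MII oocytes and 564 ± 22.1 (SD, n = 2) in 2-cell embryos.

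Of the 9 SR-related genes tested none rose and 3 fell (median -0.02, and 0.33 on the whole library). These were Srrm2, a scaffold of nuclear speckles, from 76.2, 77.1 and 66.4 to 19 and 17, Nsrp1 from 102, 109 and 128 to 36.7 and 35.3, and Acin1 from 4.14, 4.96 and 4.55 to 1.57 and 1.02. Rnps1 was higher in both 2-cell libraries but below the fold threshold (0.50 ± 0.12). The list of splicing kinases holds the SR protein kinases of the SRPK and CLK families and kinases of other splicing or transcription proteins. Of its 10 genes, 4 fell and 1 rose (6 fell with TMM factors or DESeq2 and 2 on the whole library), with a median of -0.88 that stayed below 0 under each scaling and was 0.0051 over the 3 genes without a counting feature, none of which was called. Srpk1, the main cytoplasmic SR protein kinase, fell from 300.2, 288 and 299 to 39.1 and 48.2, and Uhmk1, a kinase of Sf1, from 67.3, 66.5 and 67.3 to 32.2 and 32.7. On the whole library Uhmk1 (-0.70) and Clk2 were no longer called. Clk4 rose from 2.2, 2.31 and 2.27 to 25.1 and 24.5, while its paralogs Clk2 (-1.34) and Clk3 (-1.81) fell and Clk1 was below the fold threshold (-0.94 ± 0.10) and past it with TMM factors (-1.28). The summed share of the kinase list went from 665 ± 4.41 (SD, n = 3) to 298 ± 22.8 (SD, n = 2). Most of this drop was Srpk1, whose mean share went from 295 to 43.7.

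**Figure D3:**
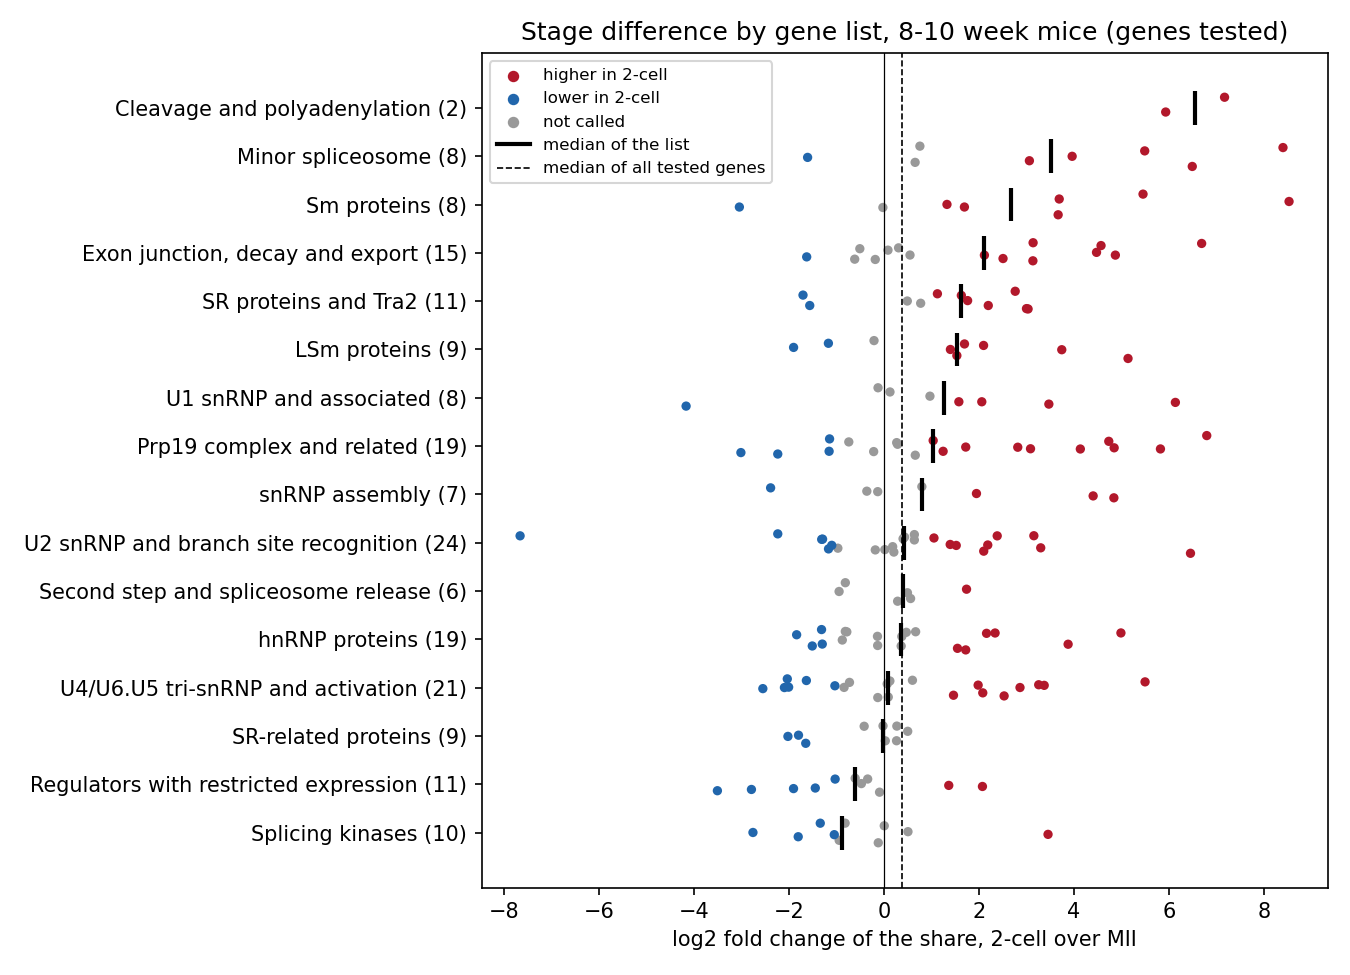
Log2 fold change of the share, 2-cell over MII (x axis), of each tested gene by list (y axis, number of genes tested in parentheses), with red points called higher, blue points called lower and grey points not called. Thick bars are list medians and the dashed line is the median of all tested genes, 0.37; most lists hold genes on both sides of 0, and the kinases have the lowest median.

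The hnRNP proteins, which bind nascent RNA and often act against SR proteins, showed 6 rises, 4 falls and 9 genes that were not called among 19 (median 0.36). This is near the 39.8% higher, 24.6% lower and median of 0.37 of all tested genes. With TMM factors or DESeq2 7 of the 19 hnRNP genes fell, and on the whole library 7 rose and 2 fell. Syncrip rose from 0.953, 0.682 and 0.403 to 19.6 and 23.2, Hnrnpa1 from 13.1, 13.7 and 15.3 to 65.8 and 59.8, and Hnrnpa3, with 14 near-identical copies, from 9.03, 8.64 and 7.68 to 36.5 and 49. Pcbp1, a poly(C)-binding protein, fell from 76.4, 79.8 and 73 to 22.1 and 20.6. Of the 19 genes, 7 have near-identical copies. Among the 4 without any counting feature none rose and 2 fell, with a median of -0.47.

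Splicing regulators known for expression in certain tissues had 5 falls and 2 rises among 11 tested of the 19 in the files (median -0.61; 1 rise with DESeq2). Of the 7 without a counting feature, 1 rose and 1 fell (median -0.48). Celf2 fell from 105, 105 and 104 to 25.3 and 30.6, and Esrp1, an epithelial splicing factor, from 75.8, 78.6 and 76.8 to 25 and 31.6. The other 8 were too low to be tested. With Rbm38 the list took a summed share of 661 ± 29.4 (SD, n = 3) in MII oocytes and 191 ± 2.57 (SD, n = 2) in 2-cell embryos, and Rbm38 alone made up most of it in MII oocytes.

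Factors of the exon junction, of decay and of export had 8 rises and 1 fall among 15 tested genes (median 2.11). Rbm8a, the Y14 subunit of the exon junction complex, rose from 4.24, 5.04 and 7.19 to 176 and 148, and Eif4a3, its RNA clamp, from 6.6, 5.95 and 5.64 to 59.9 and 46.5. Magoh, the partner of Rbm8a, had shares of 88, 89.8 and 88.9 and then 116 and 104, below the fold threshold (0.31 ± 0.09). Thoc1, of the THO complex that couples transcription to export, rose from 10.3, 9.63 and 10.2 to 88.3 and 88.8. The cap-binding pair also moved apart, with Ncbp1 higher and Ncbp2 at 105, 113 and 102 against 73.1 and 66.3 (-0.62 ± 0.09). Clp1, of the cleavage factor that cuts the 3′ end, rose from 0.985, 0.568 and 0.691 to 46.6 and 45.7; only Clp1 and Pabpn1 represented 3′ end formation in the files. Among the 7 tested genes of snRNP assembly, Ddx20 (0.985, 0.985 and 1.18, then 28.6 and 32.2), Strap (18.6, 17.3 and 16.7, then 65.3 and 69.9) and Gemin5 (0.526, 0.644 and 0.432, then 12 and 10.5) rose. Gemin8 fell by 2.39 ± 0.33, and Smn1, whose protein leads the complex, was not called (-0.36).

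Splicing factors that the study's main text names from its own protein data on MII oocytes are given here, together with Sf1, which that text does not name. The factors named there are only partly covered, and they are not independent evidence. Of the 7 genes, 3 rose and 1 fell (median 0.56), against 39.8% higher and 24.6% lower of all tested genes (median 0.37). Srsf5, given above with the SR proteins, is among those that rose. Khdrbs1 (SAM68) rose from 7.92, 8.56 and 10.2 to 37.4 and 37.5 and Hnrnpm from 3.28, 4.93 and 3.89 to 13.9 and 12.6, while Ptbp1, a repressor of exon inclusion, fell from 15.2, 14.4 and 18.2 to 6.94 and 6.01. The fall of Ptbp1 was -0.95 on the whole library, below the threshold. Puf60, which binds pyrimidine tracts near the 3′ splice site, had shares of 5.75, 4.43 and 5.93 in MII oocytes and 5.74 and 5.15 in 2-cell embryos, overlapping between stages (0.02 ± 0.22, edgeR adjusted p = 0.94; -0.32 with TMM factors). Sf1, which recognises the branch point first, did not pass either (0.40 ± 0.26). Slu7, a second step factor, was higher in both 2-cell libraries, at 32.2 and 31.6 against 21.5, 20.7 and 22.7, but below the fold threshold (0.56 ± 0.12).

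How a gene is built moved with the difference between stages. A near-identical copy was defined as a stretch of at least 150 nt with at least 98% identity in a transcript of another gene. Of the 44 tested genes with such a copy, 31 were higher and 4 lower in 2-cell embryos (median 1.71), and of the 265 without one, 92 were higher and 72 lower (median 0.13). In the MII libraries 38.2% to 41.0% of all reads had been set aside for low alignment quality and 0 as not unique, and how the programs treated reads with several possible origins was not tested. The difference also moved with mRNA length, with a median of 1.58 in the shortest of 4 length classes (up to 1739 nt), 0.62 and 0.36 in the next ones and -0.13 in the longest. Spearman's rho of the log2 fold change with length across the 309 genes was -0.27, given as a description. When genes with a near-identical copy, with at least 10% of their exon length shared with another gene, or with GENCODE exons at least 2 times as long as the RefSeq transcript were left out, 48 of the 134 remaining tested genes were higher and 33 lower, with a median of 0.27. Between-stage rank agreement over the 151 genes without these features was 0.702 to 0.726. Their part in single results was not tested beyond this. Of the largest changes, Rbmx, Cdc5l, Ncbp1, Hmx2, Zcchc8 and Snrnp70 have none of these features. Among the other genes given, Snrpg, Snrpe, Lsm7, Snrpc, Srsf3, Srsf5, Tra2b, Hnrnpa1, Syncrip, Rnps1, Gemin8 and Wtap also have a near-identical copy. Ern1, Matr3, Pabpc1, Srpk1, Rbm5, Clk4, Celf2, Sf3b6, Prpf38a, Hnrnpm and Puf60 are examples with GENCODE exons at least 2 times as long. Pabpn1, Sf3a2, Rbm38, Bud31, Thoc1 and Ptbp1 share at least 10% of their exon length with another gene. Of the 83 genes named by the rules given below, 30 have none of these features.

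**Figure D4:**
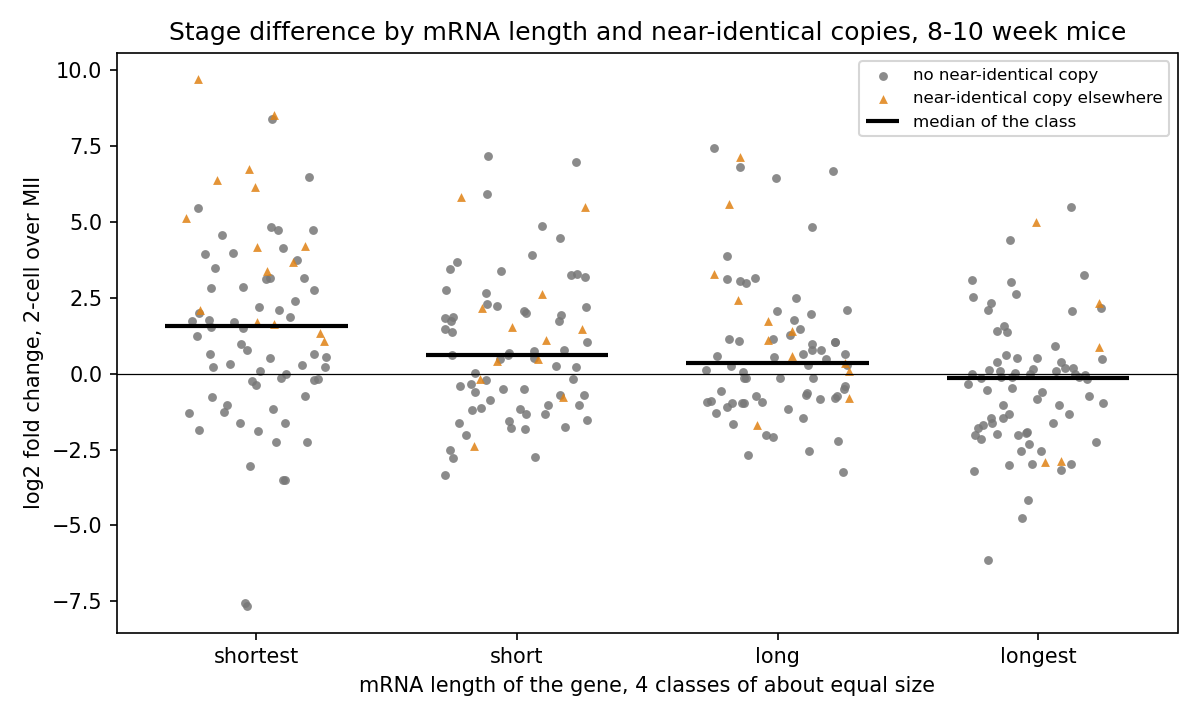
Log2 fold change of the share, 2-cell over MII (y axis), of the 309 tested genes by class of mRNA length (x axis, 4 classes of about equal size), with orange triangles for the 44 genes that have a near-identical copy elsewhere, grey circles for the others and bars for the median of each class. Medians go down from 1.58 in the shortest to -0.13 in the longest class, and most triangles lie above 0.

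The same stage difference was measured at 6–8 m and 10–12 m, in libraries that share none with the young ones but were counted by the same programs. Since the older females were ex-breeders and the young ones virgin, age and breeding history cannot be told apart. All 199 genes called in young mice had the same direction at both older ages, and 187 and 184 of them were also called there. Of all 315 genes tested over the 3 ages, 199 (63.2%) were called at 6–8 m and 195 (61.9%) at 10–12 m. Over all 15 libraries the 9 MII and 6 2-cell shares did not overlap in 191 of the 199 genes, and in 238 of all 309 tested. For Ern1, MII shares ran from 205 to 299 and 2-cell shares from 3.84 to 5.65, and for Pabpn1 from 1.13 to 2.94 and from 257 to 293. The difference between ages was tested as an interaction over 315 genes. At an edgeR adjusted p-value below 0.05 none differed between 6–8 m and 8–10 w mice (0%; 40 genes at an unadjusted p below 0.05, and 0 with TMM factors), and 4 did between 10–12 m and 8–10 w mice (1.27%). With both older ages tested jointly it was 1 gene (0.317%). Across genes, the stage differences of the young mice lay close to those of both older groups, as the plot against the older ages shows.

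**Figure D5:**
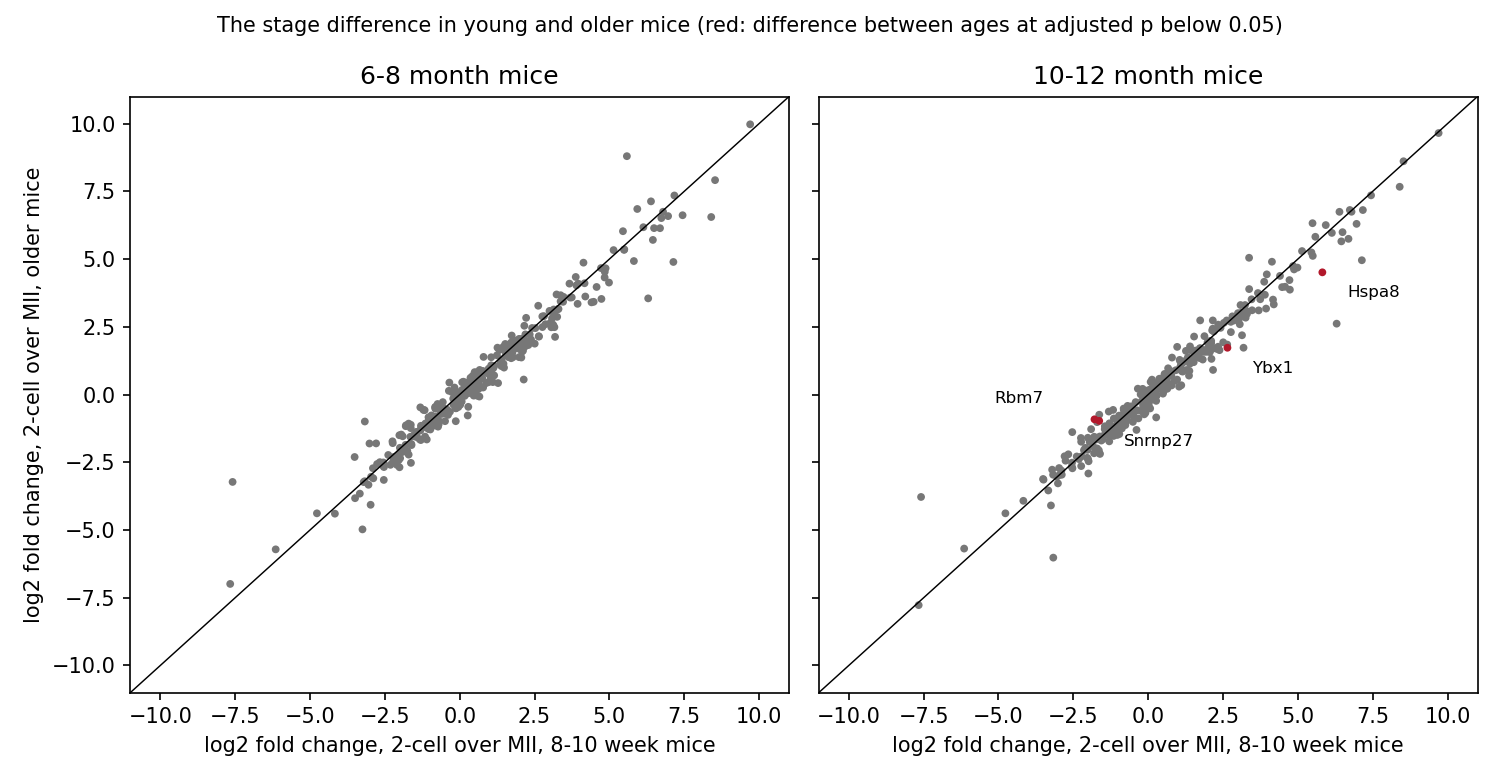
Log2 fold change of the share, 2-cell over MII, in 8–10 w mice (x axis) and in 6–8 m mice (left) or 10–12 m mice (right, y axis) for 315 genes, with the line of equality. Red points are the 4 genes whose stage difference differed from that of young mice at 10–12 m; no gene is red at 6–8 m, and the points follow the line in both panels.

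Promoter sequences were set beside the direction of change for genes that moved together. The RefSeq table (GRCm38.p6) gave a promoter, from 250 bases before to 50 after the start, for 101 of the 123 genes called higher and 67 of the 76 called lower. Searched on both strands, CCAAT was in 42.6% and 37.3% of them, GGGCGG (the GC box) in 63.4% and 73.1%, CCGGAA (the core of ETS factor sites) in 36.6% and 49.3%, and TATAAA in 10.9% and 5.97%. In all 266 promoters of the shared genes the shares were 42.1%, 62.4%, 40.2% and 9.02%, and in all 32851 promoters that it holds they were 37.4%, 35.7%, 14.9% and 13.6%. These are descriptions of letters in a window, not of binding. As examples, the promoters of Clp1 and Snu13, which rose, and of Ern1 and Zcchc8, which fell, are given 5′ to 3′ on the gene's strand, with matches to these 4 motifs in either orientation in capitals. GGGCGG or its complement is in all 4 and CCGGAA or its complement in all but Zcchc8.
Clp1, chr2:84727238-84727537, minus strand: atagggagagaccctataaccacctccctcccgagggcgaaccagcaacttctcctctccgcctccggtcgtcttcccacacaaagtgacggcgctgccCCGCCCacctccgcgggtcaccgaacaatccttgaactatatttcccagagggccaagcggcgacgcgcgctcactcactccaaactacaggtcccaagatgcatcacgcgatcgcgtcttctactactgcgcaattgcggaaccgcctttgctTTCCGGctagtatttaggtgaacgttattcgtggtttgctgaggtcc
Snu13, chr15:82047549-82047848, minus strand: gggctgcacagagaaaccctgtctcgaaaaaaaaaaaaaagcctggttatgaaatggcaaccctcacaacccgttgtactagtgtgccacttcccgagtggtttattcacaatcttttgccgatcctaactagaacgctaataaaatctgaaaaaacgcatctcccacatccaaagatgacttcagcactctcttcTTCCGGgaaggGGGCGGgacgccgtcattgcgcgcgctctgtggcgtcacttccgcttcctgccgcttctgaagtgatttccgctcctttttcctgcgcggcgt
Ern1, chr11:106487747-106488046, minus strand: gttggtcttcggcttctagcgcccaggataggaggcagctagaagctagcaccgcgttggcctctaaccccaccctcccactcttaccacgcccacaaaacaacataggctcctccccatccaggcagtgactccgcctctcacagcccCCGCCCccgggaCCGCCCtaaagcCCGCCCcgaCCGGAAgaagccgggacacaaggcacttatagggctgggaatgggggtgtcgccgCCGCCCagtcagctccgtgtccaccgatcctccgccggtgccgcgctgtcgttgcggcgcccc
Zcchc8, chr5:123720995-123721294, minus strand: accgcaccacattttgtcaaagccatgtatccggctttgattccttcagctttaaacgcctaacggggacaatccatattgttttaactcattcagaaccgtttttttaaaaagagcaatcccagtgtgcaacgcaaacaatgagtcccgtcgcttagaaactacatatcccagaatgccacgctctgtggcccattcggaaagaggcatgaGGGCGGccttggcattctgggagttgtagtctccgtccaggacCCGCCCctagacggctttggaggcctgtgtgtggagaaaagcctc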

How the data were processed

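RNA-seq libraries of MII oocytes (3 samples) and 2‐cell embryos (2 samples) of 8–10 w mice were compared, and the 10 libraries of older mice entered the comparison of the ages and, as an alternative, a fit of all 15 libraries. Per the study's methods, libraries followed Smart-Seq2, which primes on poly(A) tails, and were read as paired ends of 150 nt. For MII oocytes, the authors mapped trimmed reads to mm10 with STAR and deposited HTSeq counts without normalization; the strand setting is not given in the sources used here. For 2‐cell embryos, the deposited tables hold a fragment count per RefSeq transcript, made by a program not given in the sources used here, together with a signal column (FPM) in which the fragment count is scaled to the library, used for marker genes and library totals. The columns of FPKM were not used. Where a gene had several transcripts, the longest stood for the gene.

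The count of a gene was divided by the sum over the 333 shared genes. Differences were tested with the quasi‐likelihood test of edgeR 4.0.16 in R 4.3.3, with that sum as library size, no further scaling and edgeR's filter (minimum count 10, minimum total 15). Standard errors come from the F statistic, and p-values were adjusted by Benjamini‐Hochberg over 309 genes. With 3 samples against 2, there are 10 splits, and an exact permutation of a single gene could not go below a one-sided p of 0.1. DESeq2 1.42.0 was an alternative. The common biological coefficient of variation was 0.115. Ratios for genes with few reads carry exact binomial 95% intervals.

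The text names the 10 largest rises and falls among called genes without overlap, the 3 largest shares of each stage, 7 splicing factors chosen with the study in view and up to 4 genes of each of 17 lists with the smallest adjusted p-value, which makes 83 genes. Of the 7 splicing factors, all but Sf1 are named in the study's main text. Other list members that are given to show both directions were chosen after their values were seen. Members and lists were chosen with earlier results of these data known. Of the 333 genes, 197 were on a list, and the 136 others had 45 rises and 35 falls among 122 tested. Replicate libraries differed by more than sampling noise (chi-square over degrees of freedom 2.80 to 15.7). Near-identical copies were found with BLAST 2.17.0 among GENCODE vM21 transcripts. Tables were made with Python 3.11.15, pandas 2.3.3 and NumPy 2.4.6 and figures with matplotlib 3.10.9.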

Additional observations from a re-analysis of the deposited data

Results flagged for a closer look

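The stage difference of 4 genes differed between 10–12 m and 8–10 w mice in the interaction test, which flagged them. Ybx1, a cold-shock protein that binds mRNA, was higher in 2-cell embryos by 2.65 in young and 1.73 in 10–12 m mice (difference -0.92 ± 0.16, edgeR adjusted p = 0.0062); its MII shares were 12.4, 11.6 and 11.2 in young and 19.9, 18 and 18.6 in 10–12 m mice. Hspa8 was higher by 5.82 and 4.51 (difference -1.31 ± 0.29, edgeR adjusted p = 0.019), and it has near-identical copies. Rbm7, a partner of Zcchc8 in nuclear RNA decay, was lower by values of -1.79 and -0.91 (difference 0.88 ± 0.18, edgeR adjusted p = 0.019). Snrnp27 stood at -1.63 and -0.97 (difference 0.66 ± 0.14, edgeR adjusted p = 0.019). In all 4 genes the difference at 10–12 m was the smaller one, and the value at 6–8 m lay between (2.14 for Ybx1, 4.93 for Hspa8, -1.14 for Rbm7 and -1.24 for Snrnp27). In each arm of the interaction 2-cell embryos had 2 samples.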

How the results depend on the processing

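The counts of called genes stayed within 1.5 times under TMM factors, DESeq2, edgeR with the size factors of DESeq2, no filter on low counts, a model of all 15 libraries, an adjusted p of 0.1, no fold threshold (154 higher and 104 lower), the transcript with most fragments and the whole library as library size. With single placement genes 72 genes were higher, and without genes that have a counting feature 48 were higher and 33 lower, since these settings test fewer genes (189 and 134). Leaving out each library in turn gave 119 to 124 higher and 73 to 80 lower. Nothing in the labels says that the replicate numbers mark a shared experiment, and the deviations of same-numbered libraries had correlations of 0.031 and 0.0009, which cannot settle it, since the study made its 2-cell libraries in separate experiments. With the replicate block 122 genes were higher and 78 lower, and in the joint test of stage by age 2 genes differed in place of 1 (3 with TMM factors). Rank agreement between stages was 0.589 in single placement genes and 0.715 without counting features, against 0.632. Brdt turned sign with TMM factors (-0.25), DESeq2 (-0.27), its size factors within edgeR (-0.25) and with the transcript with most fragments (-0.044), and ran from -0.084 to 0.23 with each library left out. Puf60 did so in the first 3 of these (-0.32, -0.34 and -0.32) and with the transcript with most fragments (-0.10), and ran from -0.10 to 0.095 with each library left out. Psip1 dropped below the fold threshold without 2-cell replicate 2 (0.79), while Clk1 passed it without that library (-1.05) and Prpf18 without 2-cell replicate 1 (-1.22). With the transcript with most fragments Psip1 was at 0.96, Clk1 at -1.06 and Prpf18 at -1.06. Without the only MII library that held reads, no MII read was left for Rps13 (9.70) or Hspa1a (7.13). The fitted values were then 13.54 and 9.10, which rest on a group without reads and are not measured folds. Without MII replicate 1 Snrpc (6.14) went to 6.73. Uhmk1 was below the fold threshold on the whole library (-0.70). The cause of these changes was not tested. The whole library and the counting features were chosen as alternatives after seeing the data. Genes with a share well under 1 rest on few reads, and 24 of the 333 were too low to be tested.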

Other observations

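Several abundant MII transcripts of RNA-binding proteins outside the lists were called lower in 2-cell embryos. They were looked at after their values were seen, carry no test as a group and do not show the balance of such genes, since those on none of the lists had 45 rises and 35 falls among 122 tested. Cnot4, a ubiquitin ligase linked to the deadenylase, went from 108, 108 and 77.8 to 9.15 and 12.6, Igf2bp2, a reader of mRNA, from 105, 93.6 and 85.9 to 10.7 and 13.7, Tardbp (TDP-43) from 104, 107 and 95.8 to 20.9 and 25.3, and G3bp2, a stress granule protein, from 349, 343 and 364 to 131 and 126. Mettl3, the catalytic partner of Mettl14, fell from 15.1, 16.1 and 15.9 to 3.86 and 3.91. Tardbp, G3bp2 and Mettl3 share more than 10% of their exon length with another gene. In the other direction, Ppp4r2, a subunit of protein phosphatase 4 with 4 near-identical copies, rose from 39.5, 38.4 and 40.9 to 185 and 238.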
